A study of Mus musculus with 18 samples.

Results

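Chimeric reads between a microRNA (miRNA) and its target RNA were examined at 3 genes of antigen receptor assembly, Rag1, Rag2 and Dntt, in mouse thymocytes. The genes were chosen by name, with the read counts and miRNA contacts of these libraries already known, out of 17545 gene spans that held at least 1 read. Every read on the gene's strand inside its span was counted. Their levels and shares are therefore given as descriptions, and a p-value of theirs is no independent support for the choice. The spans are those of RefSeq on build GRCm38.p6. Rag1 (gene 19373) lies on the minus strand of chromosome 2 from 101638252 to 101649532 and held 2072 reads. Rag2 (gene 19374) lies on the plus strand of chromosome 2 from 101624712 to 101632528, 5723 nt from Rag1, and held 97 reads. Dntt (gene 21673) lies on the plus strand of chromosome 19 from 41029275 to 41059525 and held 314 reads. The share of reads on the gene's own strand was 99.7% for Rag1, 94.2% for Rag2 and 96.3% for Dntt. Exons, introns and UTRs were not analysed here.

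The libraries come from miR-eCLIP, in which UV light crosslinks RNA to Ago2, the protein that carries miRNAs, and a miRNA is joined to the RNA fragment held with it, so that 1 read names the miRNA and places its target. Total thymocytes of 6-week-old mice kept under SPF conditions were crosslinked at 254 nm. There were 4 groups of 3 libraries: an Ago2 immunoprecipitate (IP) from C57BL/6 mice (wild type), the same from B6.Mirc14tm1.1Ankr mice, labelled miR181a/b-1-KO (knockout), and, from each genotype, an IP for miR181-5p made on top of the Ago2 IP (enriched). The knockout removes only some of the genomic copies of miR-181, since miR-181a and b have a further gene copy each and miR-181c and d lie elsewhere. The 6 input samples were not analysed here. Nothing says that the libraries of a group came from separate mice, so p-values measure the spread between these libraries, which may be technical.

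RAG1 and RAG2 form the recombinase that cuts DNA at recombination signal sequences to start V(D)J recombination, and the cut ends are then joined by the non-homologous end-joining machinery. Dntt encodes terminal deoxynucleotidyl transferase (TdT), which adds untemplated nucleotides at the joints. In the thymus all 3 genes are active while T cell receptor genes are assembled. A miRNA guides Ago2 to target RNAs mainly through its seed, bases 2 to 8 counted from its 5′ end, and miRNAs with the same seed can contact the same sites. miR-181a is abundant in developing thymocytes, and miR-142a is a miRNA of blood cells.

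The miRNAs that made most contacts with the 3 genes, miR-181a-5p, miR-142a-3p and miR-181b-5p, are shown here beside miR-181c-5p, miR-181d-5p and let-7f-5p. Sequences run 5′ to 3′ with the seed in capitals (RefSeq, GRCm38.p6). They are given because the results turn on which seed a contact carries and on how miR-181a and b differ outside it.
miR-181a-5p: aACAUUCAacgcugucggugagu
miR-181b-5p: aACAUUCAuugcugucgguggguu
miR-181c-5p: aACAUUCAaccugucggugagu
miR-181d-5p: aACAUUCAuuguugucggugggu
miR-142a-3p: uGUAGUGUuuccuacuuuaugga
let-7f-5p: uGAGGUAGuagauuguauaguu
The 4 miR-181 arms share 1 seed. Over the length of miR-181a-5p, miR-181b-5p differs from it by A9U, C10U and A21G, counted from 1 at the 5′ end, and is longer (24 against 23 nt). Of 15 miRNAs named here, 13 matched a RefSeq sequence, and miR-150-5p and miR-669o-3p are given by name only.

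Libraries held from 6832 to 293149 chimeric reads, with the knockout enriched libraries the shallowest (6832 to 19264). Levels are given as reads per 1000000 chimeric reads of the library (RPM). In the knockout enriched libraries 3 reads correspond to 156 to 439 RPM, so that low levels could not be measured there. miR-181 made up 31.1 ± 1.09% of all reads in wild-type Ago2 IPs, 1.38 ± 0.0595% in those of the knockout, 98.98 ± 0.207% in the enriched wild type and 71.9 ± 1.24% in the enriched knockout (SD, n = 3 each). The knockout enriched libraries 1 and 3, and 2 and 3, were not told apart by a chi-square test over genes (p = 0.0922 over 51 genes and p = 0.135 over 48 genes), but shared 4% and 4.93% of the smaller library's distinct reads, near the 4.18% of libraries 1 and 2, and were kept as separate samples. Reads of all 11 thymocyte markers were present. Of markers of other cell types, 5 of 6 for thymic stroma (Krt5, Krt8, Foxn1, Col1a1 and Pdgfra), the B cell gene Cd22, the myeloid gene Cd14 and the dendritic cell gene Xcr1 were at 0. The B cell list matters here since B cell precursors also use the 3 genes: the 7 B cell markers summed to 0 to 42.4 RPM in wild-type Ago2 IPs and 0 to 19.2 RPM in knockout ones. Erythroid, myeloid and dendritic markers summed to at most 101, 49.4 and 22.7 RPM in any Ago2 IP library. In these bulk samples, fewer cells of a type and less RNA per cell cannot be told apart.

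Rag1, the catalytic subunit of the recombinase, was among the genes with the most chimeric reads in these thymocytes. By reads, not scaled to length, it ranked 8 of 12217 gene spans in wild-type Ago2 IPs and 18 of 11482 in knockout ones. The wild-type Ago2 IP libraries held 336, 212 and 121 Rag1 reads, or 2851, 3069 and 2751 RPM. The knockout Ago2 IP libraries held 150, 158 and 124 reads, or 2468, 2336 and 2380 RPM. After enrichment, the wild-type libraries held 367, 327 and 243 reads (1252, 1290 and 1249 RPM) and the knockout libraries 13, 17 and 4 (1067, 882 and 585 RPM). All libraries of a group lay together, and no group overlapped another, in the order wild-type Ago2 IP, knockout Ago2 IP, enriched wild type and enriched knockout. Of all genes tested, 13.5% were lower without overlap in the knockout in the Ago2 IP, 11.5% in the knockout in the enriched libraries, 38.6% after enrichment in the wild type and 24.5% after enrichment in the knockout.

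Rag2, the partner subunit that binds chromatin, was contacted far less often. Its levels were 76.4, 203 and 159 RPM in the wild-type Ago2 IP, from 9, 14 and 7 reads, and 165, 133 and 192 in the knockout, from 10, 9 and 10 reads. These groups overlapped. The enriched wild-type libraries were lower, at 40.9, 51.3 and 51.4 RPM from 12, 13 and 10 reads. The enriched knockout libraries held 0, 3 and 0 reads, and the 2 counts of 0 allow levels of up to 246 and 439 RPM, above every other library of Rag2. Of the 97 Rag2 reads, 28 lay where its span overlaps that of Iftap, a gene on the opposite strand.

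Dntt had levels of 339, 203 and 227 RPM in the wild-type Ago2 IP, from 40, 14 and 10 reads. The knockout Ago2 IP gave 329, 281 and 499, from 20, 19 and 26 reads, and overlapped the wild type. The enriched wild-type libraries lay close together at 232, 225 and 231, from 68, 57 and 45 reads, while the enriched knockout ranged from 146 to 821 on 10, 4 and 1 reads. In the enriched wild type, where Dntt and Rag2 were measured with the smallest spread, Dntt lay above Rag2 in every library and below Rag1 in every library. These are counts of contacts over spans of unequal length and make no statement on RNA levels.

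**Figure D1:**
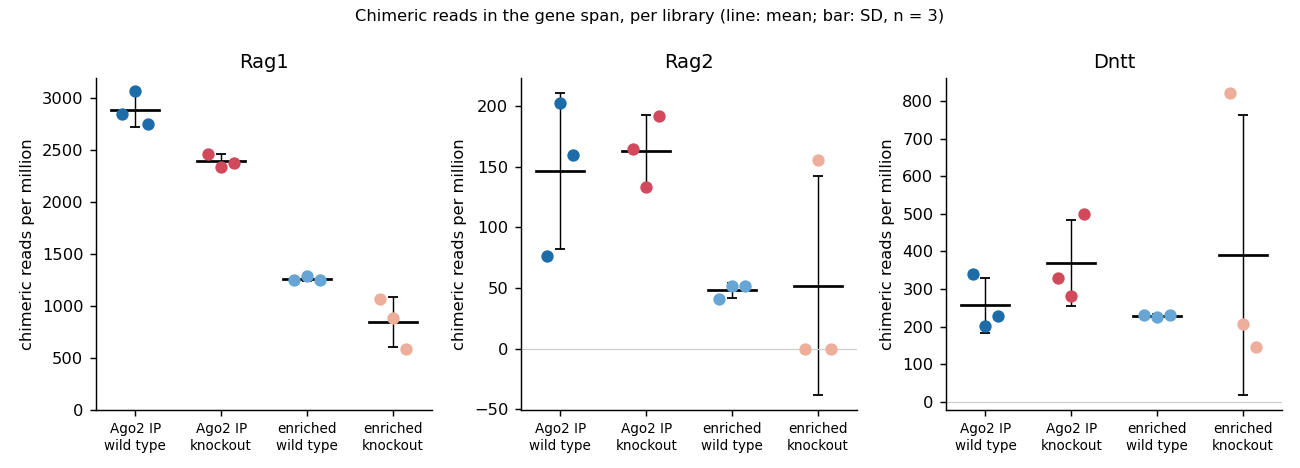
Chimeric reads per 1000000 reads of the library (RPM) in the spans of Rag1, Rag2 and Dntt (vertical axes, linear) for each library of the 4 groups, with the group mean as a line and the SD as a bar (n = 3). The Rag1 groups do not overlap, from 2890 ± 163 in the wild-type Ago2 IP down to 845 ± 243 in the enriched knockout, while the enriched knockout points for Rag2 and Dntt rest on at most 10 reads each.

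Summed over the 12 libraries, of which 6 were enriched for miR-181, miR-181a-5p, miR-142a-3p and miR-181b-5p had the most reads at each gene. At Rag1, 69 miRNAs were seen, with 838 reads of miR-181a-5p, miR-142a-3p with 673 and miR-181b-5p with 214, and all others had 23 or fewer. By seed, the miR-181 family held 1071 Rag1 reads, miR-142a-3p 673 and the let-7 family 86. The next miRNAs were let-7f-5p and miR-150-5p with 23 reads each, miR-16-5p with 20, let-7a-5p with 17, let-7g-5p with 15, and miR-19b-3p and miR-26a-5p with 12 each. At Rag2, 21 miRNAs were seen, with 33 reads of miR-181a-5p, 19 of miR-142a-3p, 12 of miR-181b-5p and 5 of miR-423-5p. At Dntt, 43 miRNAs were seen, with 148 reads of miR-181a-5p, 47 of miR-181b-5p, 41 of miR-142a-3p, and 6 each of let-7b-5p and miR-669o-3p. The order was another in the Ago2 IP. There miR-142a-3p led at Rag1 with 362 reads in wild-type libraries, against 106 of miR-181a-5p and 21 of miR-181b-5p, and at Dntt with 17 reads against 11 and 7. At Rag2, miR-142a-3p and miR-181a-5p had 5 reads each and miR-181b-5p 4. In the knockout Ago2 IP, miR-142a-3p had 292, 13 and 23 reads at Rag1, Rag2 and Dntt, and miR-181a-5p had 2, 0 and 0. The 6 miR-669o-3p reads at Dntt fell as 2 in each knockout Ago2 IP library and 0 in each wild-type one. How many of the 69, 21 and 43 miRNAs split between genotypes without overlap was not counted, so this split is only a description. At Rag1, a member of the let-7 family split the other way. Its Ago2 IP counts were 3, 3 and 2 for wild-type libraries and 0 for each knockout one. Over all genes, the level of miR-669o-3p was 3109 to 3626 per 1000000 reads of miRNAs other than miR-181 in wild-type libraries. It was 3538 to 5433 in knockout ones, and these groups overlap.

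miR-142a-3p held more of the Rag1 contacts than of the library. Among reads of miRNAs other than miR-181, it made up 63.5%, 64.8% and 79% at Rag1 in the 3 Ago2 IP libraries of the wild type and 74.5%, 69.6% and 57.7% in those of the knockout. Over whole libraries the same share was 40.04 ± 0.502% and 40.1 ± 1.03% (SD, n = 3 each), below every Rag1 value. Pooled over a group, the Rag1 share of 66.8% in the wild type stood at percentile 96.2 of 639 genes with at least 50 such reads (median 39.4%). In the knockout, 67.9% stood at percentile 96.7 of 755 genes. Dntt, with 35.9% in the knockout, lay at percentile 39.3. The let-7 family, in turn, held 9.41% of such Rag1 reads in wild-type Ago2 IPs and 7.21% in knockout ones, against 16.7% and 16.4% over whole libraries.

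In the knockout, miR-181 contacts with the 3 genes were nearly gone from the Ago2 IP. At Rag1, miR-181 made 70 of 336, 36 of 212 and 21 of 121 reads in the wild type, and 1 of 150, 0 of 158 and 1 of 124 in the knockout, a mean of 18.4 ± 2.12% against 0.491 ± 0.431% (SD, n = 3 each). At Rag2 it made 5 of 9, 3 of 14 and 1 of 7 reads in wild-type libraries and 0 of 29 in knockout ones, which allows a share of up to 10.3% (3 reads of 29; the exact 95% upper limit is 11.9%). At Dntt it made 7 of 40, 6 of 14 and 5 of 10 reads in wild-type libraries and 1 of 20, 0 of 19 and 0 of 26 in knockout ones, a mean of 36.8 ± 17.1% against 1.67 ± 2.89%. The groups did not overlap at any of the 3 genes, as at 85.8% of 1609 genes with reads in all 6 libraries. The exact two-sided permutation p was 0.1 for each (adjusted 0.1 over 3 genes), the smallest that 3 against 3 libraries allow. The wild-type share at Rag1, 19.0% when pooled, stood at percentile 17.1 of 1052 genes with at least 50 reads (median 28.6%), and that at Dntt, 28.1%, at percentile 48.3.

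In the knockout Ago2 IP, Rag1 fell among the reads of miRNAs other than miR-181, when scaled to such reads. Reads of miRNAs other than miR-181 at Rag1 numbered 266, 176 and 100 in wild-type libraries and 149, 158 and 123 in knockout ones. Per 1000000 such reads of the library (here called RPM of other miRNAs), this was 3231, 3688 and 3358 in the wild type against 2484, 2369 and 2395. The groups did not overlap, as for 9.17% of all genes tested in this direction and 8.74% in the opposite one. Scaled to all reads of the library instead, the same counts were 2257, 2548 and 2274 RPM in wild-type libraries and 2451, 2336 and 2361 RPM in knockout ones, which overlap. Reads of other miRNAs made up more of the knockout libraries, where miR-181 was nearly absent. The log2 difference, knockout minus wild type, was -0.50 (SE 0.114), a 1.41-fold lower level, with an adjusted p of 0.00147 by edgeR's quasi-likelihood test over 1396 genes. Of these genes, 2.29% passed the threshold (adjusted p of at most 0.05) in either direction, 1.5% as lower and 0.788% as higher, and Rag1 stood 10th by p. The call held with each library left out in turn (adjusted p from 0.00573 to 0.0291) and with DESeq2 (0.042). It was lost with no filter on low counts, where 13355 genes were tested (adjusted p = 0.286).

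That lower level was seen for miR-142a-3p and was of similar size for the remaining miRNAs. miR-142a-3p reads at Rag1 were 2052, 2389 and 2653 RPM of other miRNAs in wild-type libraries and 1850, 1649 and 1383 in knockout ones, without overlap, as for 6.91% of 405 genes in this direction. The remaining miRNAs gave 1178, 1299 and 705 against 633, 720 and 1013, and these groups overlapped. Fitted separately, in 2 fits added after the data were seen, the log2 difference was -0.48 (SE 0.144) for miR-142a-3p and -0.51 (SE 0.183) for the rest. Neither passed the threshold over its own genes (edgeR, adjusted p = 0.109 over 405 genes, of which 1.23% passed and 0.741% as lower, and 0.145 over 735 genes, of which 2.31% passed and 1.09% as lower). Within the most occupied Rag1 site, miR-142a-3p reads went from 1415 ± 115 to 1072 ± 179 RPM of other miRNAs, and over the rest of the gene from 950 ± 188 to 555 ± 77.6 (SD, n = 3 each).

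**Figure D2:**
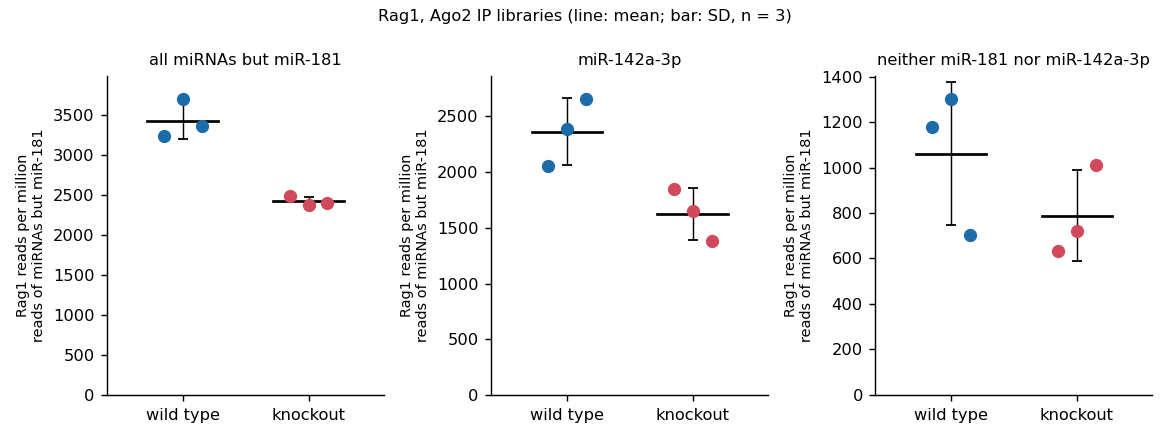
Rag1 reads in the Ago2 IP libraries, per 1000000 reads of miRNAs other than miR-181 (vertical axes from 0), for all these miRNAs, for miR-142a-3p and for the remainder, with each library as a point, the mean as a line and the SD as a bar (n = 3). The wild-type libraries lie above the knockout ones in the left and middle panels (3425 ± 236 against 2416 ± 60.3 on the left), and the groups overlap on the right.

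Of the thymocyte markers, which share the cells with Rag1, 7 of 11 could be tested in the same fit. Among these 1 was lower, Cd8a, a coreceptor chain, and none higher (1.5% and 0.788% over all genes tested). Their median log2 difference was -0.02 (0.00 over all genes tested). With all miRNAs counted together, 2 of 8 tested were lower, Cd4 and Cd8a, and none higher (6.75% and 3.41% over all genes tested). The summed level of the 11 markers in reads of miRNAs other than miR-181 was 3794 to 4178 RPM of other miRNAs in wild-type libraries and 3272 to 3403 in knockout ones. Its part in the Rag1 difference was not tested. Rag2 and Dntt did not pass the threshold in the fit on miRNAs other than miR-181. Their log2 differences were 0.27 (SE 0.484, adjusted p = 0.908) and 0.33 (SE 0.289, adjusted p = 0.718), and the 95% intervals of -0.68 to 1.22 and -0.23 to 0.90 leave room for changes in either direction.

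With all miRNAs counted together, the knockout difference in the Ago2 IP did not pass the threshold at any of the 3 genes, where 10.2% of 1615 genes did and 6.75% as lower. Rag1 had a log2 difference of -0.30 (SE 0.115, edgeR adjusted p = 0.0851), with no overlap between the groups, as for 13.5% of genes in this direction. When identical reads, meaning the same position, strand and miRNA in a library, were counted once, it passed (adjusted p = 0.0398). Rag2 had 0.26 (SE 0.413, adjusted p = 0.786) and Dntt 0.36 (SE 0.267, adjusted p = 0.463). Rag2 changed sign, to -0.24, without wild-type Ago2 IP library 1.

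In the enriched libraries, Rag1 was at the edge of the threshold, with a log2 difference, knockout minus wild type, of -0.80 (SE 0.247, edgeR adjusted p = 0.0499), where 5.5% of 2146 genes passed, 3.4% as lower and 2.1% as higher. The median gene was at -0.13 in this fit and at 0.16 with library sizes alone, and Rag1 lay 0.67 below the median in both. Its call was lost with library sizes alone (adjusted p = 0.275), with DESeq2 (0.077), with identical reads counted once (0.0533), with reads on either strand (0.05002) and without enriched knockout library 3 (0.0563). With no filter on low counts the difference was -1.42, and without enriched knockout library 2 it was -1.21. Dntt had 0.49 (SE 0.45, adjusted p = 0.638) and turned to -0.76 without enriched knockout library 1, which held 10 of the 15 reads. Rag2, with 35 reads against 3 in the knockout, was too low to test. Its pooled ratio was 1.66, with an exact 95% counting interval from 0.327 to 5.26. At Rag1, miR-181c-5p and d-5p made 5 reads each of the 34 in the enriched knockout, against 3 and 6 of 937 in the enriched wild type. Library 2 held 4 of the 5 reads of each, and without it they made 1 of 17 each. At Dntt, miR-181c-5p and d-5p made 2 and 0 of 15 reads in the enriched knockout, against 0 and 2 of 170 in the enriched wild type. Their shares over whole libraries were not calculated, so nothing particular to Rag1 can be read from these counts.

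After enrichment for miR-181, a smaller share of the library's reads of all miRNAs together fell on Rag1 and Rag2. Reads of miR-181 alone rose in the wild type, from 531 ± 58.9 to 1240 ± 23.3 RPM at Rag1. At Dntt they went from 86.6 ± 27.1 to 228 ± 3.19 RPM. At Rag2 they went from 36.2 ± 11.7 to 47.9 ± 6.00 RPM, and the groups overlapped (SD, n = 3 each). Over whole libraries, miR-181 went from 31.1 ± 1.09% to 98.98 ± 0.207% of reads, in proportion a larger rise than at any of the 3 genes. The higher miR-181 levels at the genes are therefore no result about them. With all miRNAs counted, Rag1 in the wild type went from 2890 ± 163 to 1263 ± 23.0 RPM (SD, n = 3 each), a log2 difference of -0.84 (SE 0.131, edgeR adjusted p = 2.02e-06). Rag2 went from 146 ± 64.2 to 47.9 ± 6.00, a log2 difference of -1.11 (SE 0.384, adjusted p = 0.0208). Dntt had 0.11 (SE 0.233, adjusted p = 0.754, 95% interval -0.35 to 0.57), and -0.25 with library sizes alone. Of 3144 genes, 36.1% passed in this comparison and 16.8% as lower. Library sizes alone moved the median of all genes by -0.36, and relative to that median Rag1 was at -0.80, Rag2 at -1.07 and Dntt at 0.14 under either scaling. The Rag2 call was lost with DESeq2 (0.0928), with no filter (0.199), and without wild-type Ago2 IP library 2 (-0.67) or 3, or enriched wild-type library 1 or 2 (adjusted p from 0.0605 to 0.319). In the knockout, Rag1 was lower after enrichment by a log2 difference of -1.26 (SE 0.246, adjusted p = 8.94e-06), where 21.4% of 828 genes passed and 5.8% as lower, and Dntt had 0.29 (SE 0.447, adjusted p = 0.733), or -0.75 without enriched knockout library 1. The difference between the 2 knockout effects at Rag1, in the enriched libraries minus in the Ago2 IP, was -0.70 (SE 0.301) and did not pass (adjusted p = 0.268, where 2.47% of 2067 genes passed, 0.435% as lower and 2.03% as higher). Library sizes alone moved the median of all genes by 0.45 here and put Rag1 at -0.24, and Rag1 lay 0.54 below the median under either scaling. Comparisons that share a group share its libraries, and are not independent of each other.

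Contacts along Rag1 were concentrated towards its 3′ end. Of 2072 reads, 68.5% lay within 3000 nt of the 3′ end and 98.4% within 6500 nt. The kilobase from 2000 to 3000 nt held 717 reads and that from 1000 to 2000 nt held 493. miR-142a-3p and miR-181 were spread differently: 90.6% of miR-142a-3p reads but 61.6% of miR-181a-5p and 24.8% of miR-181b-5p reads lay within 3000 nt. Further 5′, between 4000 and 5000 nt, miR-181 made 208 of the 251 reads.

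**Figure D3:**
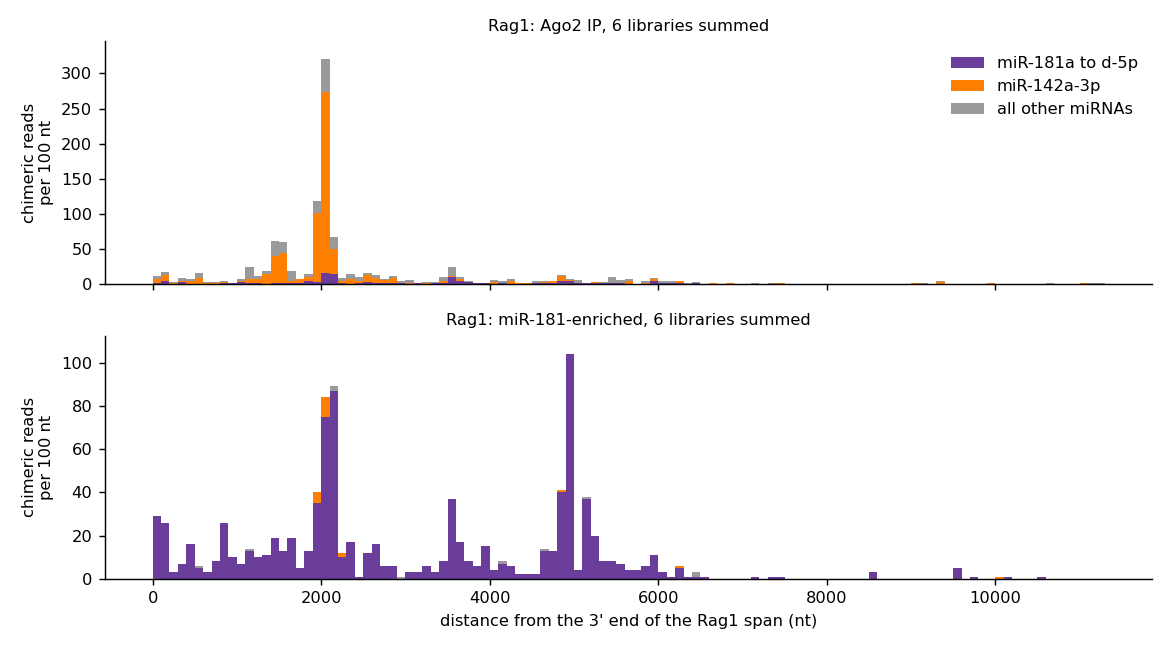
Rag1 reads in windows of 100 nt against the distance from the 3′ end of the span, stacked by miRNA, in the Ago2 IP libraries (top) and the enriched libraries (bottom). In the Ago2 IP a peak near 2000 nt consists mostly of miR-142a-3p, and in the enriched libraries miR-181 reads extend over about 6500 nt, with peaks near 2100 and 4900 nt.

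Reads whose positions lay at most 20 nt apart were joined into sites. Rag1 had 90 sites, 21 of them with at least 10 reads, and the 6 with the most reads held 71.4% of its reads. The most occupied site, chr2:101640011-101640672 on the minus strand, held 815 reads (39.3% of all at Rag1), with 428 of miR-142a-3p, 266 of miR-181a-5p and 18 of miR-181b-5p. Its Ago2 IP level was 1366 ± 86.0 RPM in wild-type libraries and 1323 ± 125 RPM in knockout ones (SD, n = 3 each), a log2 difference of -0.19 (SE 0.167, edgeR adjusted p = 0.393 over 251 sites, of which 36.3% passed). The neighbouring site at chr2:101639509-101639978 held 243 reads, 107 of them of miR-142a-3p, at 489 ± 70.7 and 346 ± 97.0 RPM, a log2 difference of -0.58 (SE 0.280, adjusted p = 0.1). It passed without knockout library 2 (-0.80, adjusted p = 0.0387). No other site of the 3 genes had enough reads to be tested.

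At the other 4 Rag1 sites among the 6, over 50% of the reads summed over the 12 libraries were of miR-181, in large part from the enriched libraries. The site at chr2:101643032-101643297 held 176 reads, 160 of miR-181, and that at chr2:101641738-101641960 held 100, of which 75 were of miR-181. The site at chr2:101638253-101638429, which starts 1 nt inside the 3′ end of the span, held 84 reads, 62 of miR-181. Reads beyond the end of the span were not counted, so this site may extend further. The site at chr2:101640778-101640978 held 62 reads, of which 34 were of miR-181. In the wild-type Ago2 IP alone, miR-181 made 10 of 20, 14 of 26, 7 of 17 and 4 of 19 reads at these 4 sites. The next site by reads, at chr2:101643382-101643507, was just below the 6 with 61 reads, 59 of miR-181. Of the 21 Rag1 sites with at least 10 reads, 14 were more than 50% miR-181 over all 12 libraries summed, 4 were so among wild-type Ago2 IP reads alone, and 18 held at least 1 read of miR-142a-3p.

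Inside the most occupied Rag1 site, miR-142a-3p and miR-181a-5p reads overlapped but had their highest pile-ups at different places. The median position of miR-142a-3p reads was 101640279, that of miR-181a-5p reads 101640340.5, further from the 3′ end of the gene. The 20 nt with the most miR-142a-3p reads ran from 101640271 to 101640290 (115 reads) and those with the most miR-181a-5p reads from 101640351 to 101640370 (59 reads). The 20 nt that start 220 nt from the 3′ edge of the site held 85 reads of miR-142a-3p and 25 of miR-181a-5p. Of all reads at the site, 23.8% repeated an identical read. The distance between medians was 64, 29 and 62.5 nt in the 3 wild-type Ago2 IP libraries, from 24, 9 and 6 miR-181a-5p reads. In the knockout, where miR-181 was nearly absent, the miR-142a-3p median was 101640277, against 101640279.5 in the wild-type Ago2 IP. The 19 miR-150-5p reads of the site had their median at 101640275. The files give each read as 1 position, and which end of the target fragment it marks is not given in the sources used here.

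**Figure D4:**
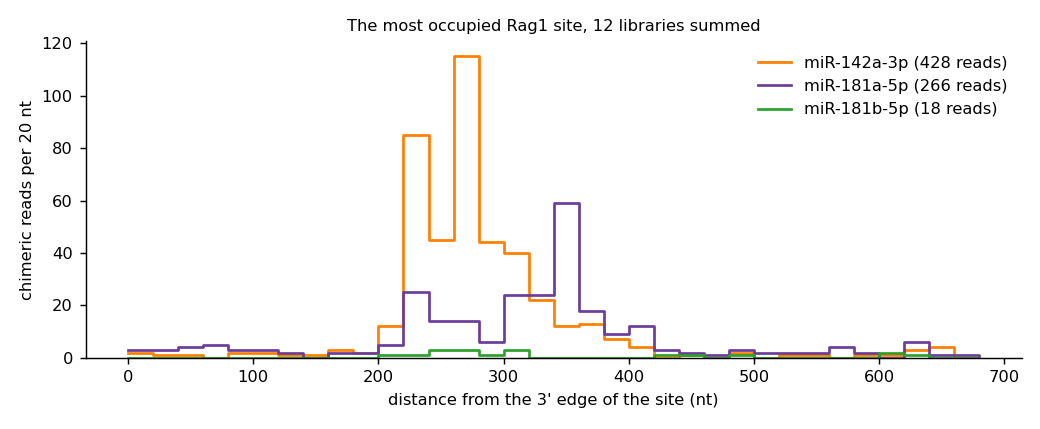
Reads of miR-142a-3p, miR-181a-5p and miR-181b-5p per 20 nt across the most occupied Rag1 site, 12 libraries summed, against the distance from the 3′ edge of the site. The miR-142a-3p curve has its highest step of 115 reads nearer the 3′ edge than the miR-181a-5p curve, whose highest step is 59 reads.

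The balance of reads named miR-181a and miR-181b differed between some sites of Rag1 and Dntt. The mature sequences differ at few bases, and how reads that fit several of them were named is not given in the sources used here, so the shares are those of the deposited names. In the enriched wild type, miR-181b-5p made up 18.6 ± 1.53% of miR-181a and b reads over whole libraries, 20.9 ± 1% at Rag1, 23.2 ± 6.67% at Rag2 and 22.5 ± 2.66% at Dntt (SD, n = 3 each), so that the gene totals lay near the library. Some single sites lay far apart. At the Rag1 site chr2:101643032-101643297, miR-181b-5p made 50, 34 and 23 reads in the 3 enriched wild-type libraries and miR-181a-5p 16, 11 and 13, a pooled share of 72.8% (exact 95% interval 64.8% to 79.8%). At the next site towards the 5′ end with at least 10 reads, chr2:101643382-101643507, it was the reverse, with 0, 1 and 0 reads of miR-181b-5p and 25, 19 and 9 of miR-181a-5p, a share of 1.85% (0.0469% to 9.89%). Each library showed the same order at this pair of sites. At the most occupied site the share was 6.67% (3.86% to 10.6%). Of the 6 Rag1 sites with the most reads, all but that of 72.8% had a share from 6.67% to 15.3%.

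Among 3223 sites of all genes with at least 20 such reads, whose median share was 9.84%, the first of these stood at percentile 96.4 and the second at percentile 9.93. At the first, 27.3% of reads repeated an identical read, and with identical reads counted once the share was 66%. The pair of sites lies close enough that joining reads at most 50 nt apart merged them into 1 site of 1027 nt, chr2:101642893-101643919, with a share of 46%, and the contrast between them was not resolved at that distance. A site nearer the 3′ end, chr2:101638618-101638774, had a share of 55.0% from 20 reads (31.5% to 76.9%). These intervals take in counting error and no other source, as 1 molecule can give several reads.

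The 2 Dntt sites with the most reads also differed in their miR-181b share. Dntt had 124 sites, of which 6 held at least 10 reads and 83 a single read. The site at chr19:41037162-41037188 on the plus strand, 27 nt wide and 22337 to 22363 nt from the 3′ end, held 43 reads, 42 of miR-181a-5p and 0 of miR-181b-5p, with 21, 10 and 9 of miR-181a-5p in the enriched wild-type libraries. The site at chr19:41059407-41059452, 73 to 118 nt from the 3′ end, held 27 reads, 26 of miR-181b-5p and 0 of miR-181a-5p, with 5, 9 and 6 of miR-181b-5p in those libraries. The miR-181b share was 0% at the first (exact 95% upper limit 8.81%), as at 8.84% of the same 3223 sites. It was 100% at the second (lower limit 83.2%), which stood at percentile 99.6 of them. With joining at 50 nt these shares were 1.82% and 100%. At the first of these, 41.9% of reads were repeats of an identical read, against 14.8% at the second. With identical reads counted once, the enriched wild type held 22 reads of miR-181a-5p at the first and 16 of miR-181b-5p at the second.

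**Figure D5:**
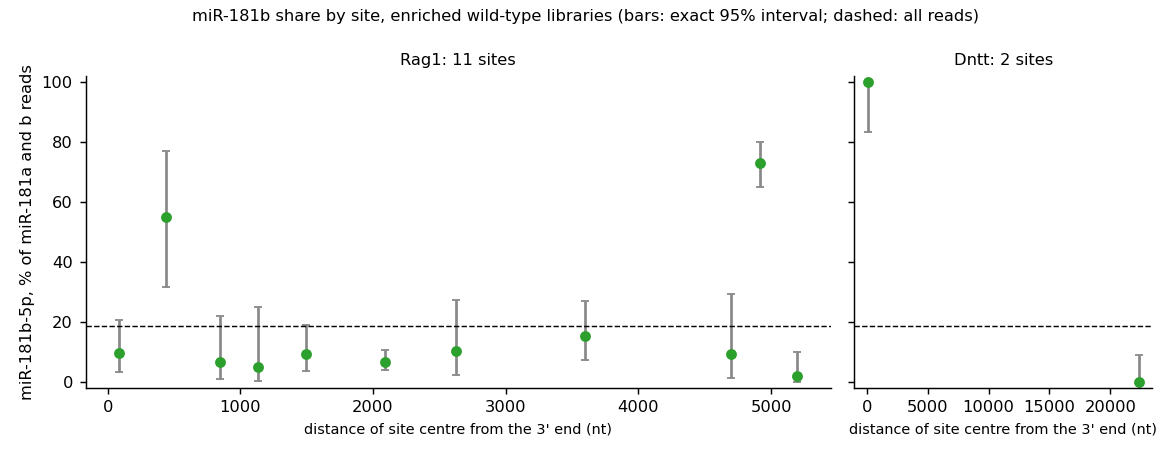
The share of miR-181b-5p among miR-181a and b reads in the enriched wild-type libraries, pooled, for each site with at least 20 such reads on Rag1 (11 sites) and Dntt (2 sites), against the distance of its centre from the 3′ end, with exact 95% intervals and the share over all reads (18.4%) as a dashed line. On Rag1 sites with 72.8% and 1.85% are neighbours near 5000 nt, and the Dntt sites lie at 100% and 0%.

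The other Dntt sites were smaller. Those at chr19:41037217-41037286 (17 reads), chr19:41051253-41051266 (13 reads) and chr19:41035963-41035971 (11 reads) were 88.2%, 100% and 100% miR-181. The site at chr19:41050680-41050726 (16 reads) was mixed, with 6 reads of miR-181, 4 of miR-142a-3p and 6 of other miRNAs, and held 6 reads in each Ago2 IP group. Rag2 had 46 sites, 30 of them a single read, and only that at chr2:101630802-101630882, 1646 to 1726 nt from the 3′ end, reached 10. Its 14 reads included 4 of miR-181, 1 of miR-142a-3p and 9 of other miRNAs. By kilobase, 39 of the 97 Rag2 reads lay between 1000 and 2000 nt from the 3′ end.

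Genes that act with the 3 were read from a list of 18 genes of the recombination and end-joining machinery, of which 17 had reads. Most were too low to test. In the Ago2 IP, 1 of 5 tested was higher in the knockout and none lower (3.41% and 6.75% over all genes tested), with a median log2 difference of -0.02 (0.02 over all genes tested). This was H2ax, the histone variant phosphorylated at DNA breaks, which went from 84.4 ± 38.1 to 219 ± 43.2 RPM (SD, n = 3 each), a log2 difference of 1.25 (SE 0.407, edgeR adjusted p = 0.0378). DESeq2 called 0 of the 5. Counting only reads of miRNAs other than miR-181, 0 of 4 passed by edgeR (0 at an unadjusted p under 0.05, and 0 by DESeq2), and H2ax had 0.77 (adjusted p = 0.457). All its Ago2 IP reads, 21 in wild-type and 40 in knockout libraries, were of such miRNAs. Its counts were thus the same in both fits, and the scaling differed, with 122 ± 54.6 and 222 ± 43.8 RPM of other miRNAs here. After enrichment in the wild type, 2 of 7 were lower (16.8% over all genes tested), Prkdc, the catalytic subunit of DNA-PK, at -1.08 (SE 0.338, adjusted p = 0.0102), and Xrcc4, the partner of the ligase of end joining, at -0.90 (SE 0.256, adjusted p = 0.00488), none was higher, and DESeq2 called 1. Between genotypes in the enriched libraries, edgeR called 0 of 4 (0 at an unadjusted p under 0.05, and 0 by DESeq2), and in the test of the difference between the genotype effects 0 of 5 (0 and 0). None was tested between IPs of the knockout.

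The 10 members of a list of transcription factors linked to Rag gene expression in lymphocytes all had reads. In the Ago2 IP, 0 of 8 tested passed between genotypes by edgeR (2 at an unadjusted p under 0.05, and 0 by DESeq2), with a median log2 difference of 0.04. After enrichment in the wild type, 3 of 9 were lower and 1 higher (16.8% and 19.3% over all genes tested). The lower ones were Myb, an activator of early thymocyte genes, at -0.80 (SE 0.164), Tcf12, an E protein, at -0.55 (SE 0.137), and Satb1, a chromatin organiser, at -0.48 (SE 0.131). Bcl11b, a factor of T cell commitment, was higher at 0.45 (SE 0.133). The median of the 9 was -0.16, against -0.04 over all genes tested. In the knockout, 1 of 8, Myb, was lower after enrichment (5.8% over all genes tested), at -0.98 (SE 0.331, adjusted p = 0.0188), and DESeq2 called 0. Between genotypes edgeR called 0 of 8 in the enriched libraries (0 at an unadjusted p under 0.05, and 0 by DESeq2) and 0 of 8 on reads of miRNAs other than miR-181 (1 and 0). The test of the difference between the genotype effects called 0 of 8 (0 and 0).

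The genes whose levels across the 12 libraries were most like those of each gene were found by Pearson's r of log2(RPM + 10) over 4022 genes with at least 50 reads. For Rag1 these were Rasgrp1 (r = 0.985), Skp1 (0.950) and Malat1 (0.937). For Rag2 they were Cic (0.984), Nup50 (0.981) and Slamf1 (0.979), and for Dntt B2m (0.895), Pip4k2b (0.883) and Alkbh1 (0.848). Rag1 and Rag2 correlated at 0.738, Rag1 and Dntt at 0.221 and Rag2 and Dntt at -0.14. The points share libraries of very different depth and miR-181 content, and the values are descriptions.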

How the data were processed

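The deposited files list counts: per the file headers and lines, a line stands for 1 chimeric read placed at 1 nt and carries a miRNA name and a strand, with no scaling and no pooling, in 24 files of 12 libraries. The submitters' processing notes name Bowtie2 2.4.5, SAMtools 1.11, STAR 2.7.10, UMI-tools 1.1.1 and bedtools 2.30.0 and the builds mm10 and GRCm38.p6, without their roles. Reads were counted here per gene span of a RefSeq table of GRCm38.p6, on the gene's strand where a sequence table gave it (28096 genes) and otherwise on the strand with more reads (5355 genes). Where identical reads occur, all were used. Spans were fitted with edgeR 4.0.16 (quasi-likelihood, TMM, filterByExpr with a minimum count of 10, library size the total of chimeric reads) in R 4.3.3, with Benjamini-Hochberg adjustment over all genes tested, called at an adjusted p of at most 0.05. Shares used exact permutation tests in scipy 1.17.1.

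Intervals are exact (Clopper-Pearson, 95%) except those of log2 differences, which are the estimate with 1.96 SE on either side. The SE of an edgeR log2 difference was worked back from its test, as the size of the difference divided by the square root of the F statistic. Intervals of log2 differences are therefore approximate. Libraries held 6832 to 293149 reads, which limits precision most in the enriched knockout. Correlations of same-numbered deviations ran from -0.104 to 0.00485 between genotypes. Between IPs they were weak but all positive, from 0.0056 to 0.103. No block was used in the main fits, so the comparisons between IPs were fitted as unpaired. On simulated counts for the knockout comparison in the Ago2 IP (1635 genes), 57.6% of 85 tested 2-fold and 100% of 97 tested 4-fold changes were recovered, with 6 false calls. The simulation used a set spread between libraries, not one estimated from the data, and held no loss of miR-181. Its rates may therefore not hold for the real libraries.

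The genes, lists and rules were chosen with earlier results of these data known. Named were the miRNAs with at least 5 reads at a gene (at most 10), the sites with at least 10 reads (at most 6), list members that passed, and the 3 most like genes. Rag1 sites named beyond this, miR-181c and d, let-7 as a family, its member with a split at Rag1 and H2ax in the second fit were chosen after values were seen. The alternatives were DESeq2 1.42.0, library sizes alone, no filter, identical reads once, either strand, a replicate block, joining at 50 nt, the knockout enriched libraries 2 and 3 as 1 sample, and leaving out each library.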

Additional observations from a re-analysis of the deposited data

How the results depend on the processing

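The differences in miR-181 share kept their direction and moved by less than the spread between libraries under the 27 alternatives run for them. The Rag1 difference between the IPs passed under every alternative run, in both genotypes. The Rag1 interaction passed under none and lay from -1.01 to -0.24, the latter with library sizes alone. Of 44 alternative levels and miR-181b percentages, 7 moved. Joining at 50 nt gave 46% at the Rag1 site of 72.8%, an alternative chosen after seeing the data, as was counting identical reads once for these percentages, which moved none of them. Of 93 alternative counts of called features, 17 moved by over 1.5 times. DESeq2 gave 58 genes in the Ago2 IP (5 higher, 53 lower, against 55 and 109), 72 in the enriched libraries (41 and 31, against 45 and 73), 684 between IPs of the wild type (416 and 268, against 606 and 528) and 8 for miRNAs other than miR-181. No filter gave 282 in the enriched libraries (27 higher), 20 for the other miRNAs, 18 for the interaction and 206 sites (5 higher, against 27 of 91). Library sizes alone gave 85 for the interaction, and turned the split in the enriched libraries to 75 higher and 34 lower, between IPs to 389 and 1063 in the wild type and 122 and 103 in the knockout (against 129 and 48), and at sites to 43 and 62. Leaving out each library gave 71 to 122 genes in the enriched libraries, 24 to 51 for the interaction and 16 to 27 for the other miRNAs.

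At Rag1, the knockout difference in the Ago2 IP passed with identical reads counted once (-0.35). That in the enriched libraries no longer passed with library sizes alone (-0.51), DESeq2 (-0.78), identical reads once (-0.74), either strand (-0.81) or a replicate block (-0.82), and lay from -1.21 to -0.68 over the left-out libraries. That for other miRNAs no longer passed with no filter (-0.51), with miR-142a-3p alone (-0.48) or without it (-0.51), and the site at 101639509 lay from -0.81 to -0.46. At Rag2, the Ago2 IP difference lay from -0.24 to 0.38 over the left-out libraries and that for other miRNAs from -0.40 to 0.79, with the sign turned without wild-type library 1. Its difference between IPs no longer passed with DESeq2 (-1.16) or no filter (-0.92) and lay from -1.58 to -0.67. At Dntt, the enriched difference turned with no filter (-0.13) and lay from -0.76 to 0.62, that between wild-type IPs turned with library sizes alone (-0.25) and identical reads once (-0.030), and that between knockout IPs turned with no filter (-0.32) and lay from -0.75 to 0.73. With identical reads counted once, mean levels of Rag1 were 2650 RPM in the wild-type Ago2 IP, 2117 RPM in that of the knockout and 1535 RPM in the enriched wild type, and in the last Rag2 had 68.5 and Dntt 279.5 RPM (237.1 with either strand). The causes were not tested. The replicate block, by replicate number, changed no other call at the 3 genes. Depth limits Rag2 and Dntt in the enriched knockout most, with 3 and 15 reads.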
